A study of Homo sapiens with 4 samples.

Results

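Fanconi anemia, homologous recombination, and checkpoint repair genes were followed in TPC1 cells between 6 h and 24 h of RET inhibition. The set comprises 37 protein-coding genes chosen by symbol and role, with no value in the rule, and all 37 were present among the 20372 genes of the count table. They were chosen with earlier results from these libraries known. TPC1, an established human line from a papillary thyroid carcinoma, carries the CCDC6-RET rearrangement, and BLU6864 is a RET inhibitor. RNA was sequenced from cells exposed to BLU6864 for 6 h (2 libraries) or 24 h (2 libraries), all grown in DMEM with 10% FBS. The dose is 100 µM in the labels, the text of the study gives 100 nM for BLU6864, and the labels mark both 24 h libraries as a re-analysis, so that mark and the time of exposure cannot be told apart. Vehicle libraries were not analysed here, so an effect of the inhibitor and one of longer culture cannot be told apart either.

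The products of these genes act together on damaged and stalled replication forks. The Fanconi core complex is a ubiquitin ligase that recognizes DNA interstrand crosslinks and marks the FANCD2-FANCI pair, which recruits nucleases to the crosslink. Homologous recombination then rebuilds the broken duplex from the sister chromatid, with BRCA1, PALB2, and BRCA2 acting on the resected ends. ATR and ATM, with their effector kinases CHEK1 and CHEK2, halt the cell cycle meanwhile. Because the sister chromatid is the template, recombination is restricted to cells in S and G2 phase, and many of these genes are known targets of E2F factors.

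Total counts lay between 23917056 and 27457040 per library, and 12876 genes had sufficient counts to be tested. All 37 members were among them. Raw counts were scaled by the TMM method, and these normalized counts are given below in each library. The log2 fold change is 24 h minus 6 h from edgeR's quasi-likelihood test, and each adjusted P below is from that test with Benjamini-Hochberg adjustment over all genes tested. A gene was called lower or higher when its log2 fold change was beyond 0.5 in that direction with an unadjusted P under 0.01. Counts per transcript length and library size (RPKM) were used where levels of different genes are compared. The sources used here do not say that the 2 libraries of a time point came from separate cultures, so each P measures the spread between libraries, which may be technical. Of the thyroid lineage markers, PAX8 was abundant, with between 19124 and 22978 raw counts, and TG and FOXE1 were detected, whereas NKX2-1 and TSHR were at 0 counts in every library. The 8 markers of white blood cells had summed raw counts of 67 and 68 at 6 h and 101 and 109 at 24 h, mostly from CD14, which was called higher (log2 fold change 0.95), and PTPRC had at most 5 counts in a library. The 6 fibroblast markers summed to 560 and 650 at 6 h and 246 and 299 at 24 h, mostly from COL1A1 (-1.57) and PDGFRB (-1.48), which were called lower, whereas LUM (0.75) was called higher and COL1A2 and COL3A1 were at 0. The 3 endothelial markers summed to 502 and 528 at 6 h and 48 and 27 at 24 h, mostly from KDR (-3.97). The part of these markers in the results was not tested.

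At 24 h, 26 of the 37 members were called lower and 3 were called higher, against 17.7% lower and 17.4% higher among all genes tested. The remaining 8 were not called. The median log2 fold change was -1.30 for the members and 0.0029 for all genes tested. Changes below -2 on the log2 scale, at that P, were seen in 14 members, against 3.36% of all genes, and by adjusted P under 0.05 alone, 29 members were lower and 5 higher, against 32.6% and 33.0% of all genes. Both 24 h libraries lay below both 6 h libraries in 30 members and above them in 6, against 40.8% and 41.0% of all genes. RAD51AP1, EME1, EXO1, BLM, and BRIP1 had the most negative changes among the members. FANCF, PALB2, and ATR were called higher.

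**Figure D1:**
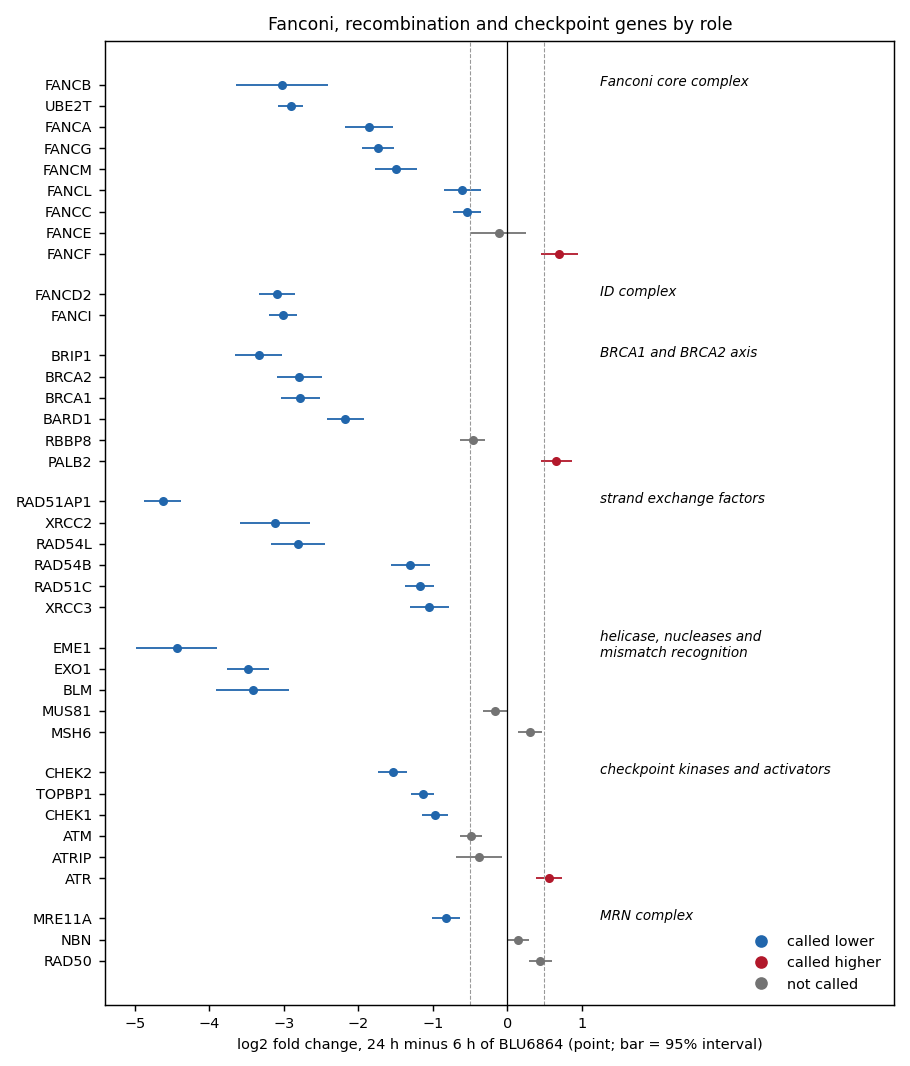
Log2 fold change of each of the 37 members (24 h minus 6 h of BLU6864, horizontal axis) with its 95% interval from the edgeR fit, arranged by role. Dashed lines mark the cutoffs at -0.5 and 0.5, blue points are called lower, red points called higher, and grey points not called, and each role except the ID complex and the strand exchange factors holds both lower and uncalled or higher genes.

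The proliferation markers, none of which is a member, moved with this set. Of 25 such genes, including MKI67, TOP2A, cyclins, and MCM helicase subunits, 25 were called lower, against 17.7% of all genes tested. Their median log2 fold change was -3.67, and 19 were below -2. MCM2 to MCM7 had the smallest falls, from -1.96 (MCM4) to -0.51 (MCM6), and PCNA had -2.07. The largest falls were those of CENPE (-4.85), TOP2A (-4.75), and CCNA2 (-4.48), a mitotic kinesin, a topoisomerase, and a cyclin. Their summed normalized count was 82336 and 81077 at 6 h and 10612 and 10329 at 24 h. The part of this change in that of the repair genes was not tested. In bulk RNA, fewer cells that express a gene and less RNA per cell cannot be told apart.

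Sequence around the start site was examined because many of the members moved together. RefSeq promoters (GRCh38.p14) of 300 bases, from 250 before the start to 50 from it on, were matched by symbol for 34 members. Of these, 10 had more than 1 promoter entry, and a gene counted as holding a word when any entry did. The E2F word was read as TTTGGCGC, TTTCCCGC, TTTCGCGC or TTTGCCGC on either strand, which is stricter than the range of sites these factors bind. It was found for 7 of the 34 members, which is 20.6%, for 6.68% of the genes tested that could be matched, and for 8.48% of those called lower. Of the 24 matched members called lower it was found for 6, and of the 10 others for 1. Its share was not higher in the larger falls. It was found for 3 of 13 members below -2 (23.1%) and 3 of 11 with a smaller called fall (27.3%). In FANCC, FANCD2, EXO1, XRCC2, TOPBP1, and MSH6 a word lay within 70 bases before to 30 bases after the start. These stretches are shown, 5′ to 3′ on the strand of the gene, because they set members with large, moderate, and no called fall side by side, and capitals mark the E2F word.
FANCD2, chr3:10026367-10026466, plus strand: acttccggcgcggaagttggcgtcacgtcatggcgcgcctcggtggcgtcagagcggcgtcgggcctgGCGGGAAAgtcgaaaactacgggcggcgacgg
EXO1, chr1:241848134-241848233, plus strand: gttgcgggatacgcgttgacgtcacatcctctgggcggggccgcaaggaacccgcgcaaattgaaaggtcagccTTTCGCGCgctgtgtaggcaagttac
XRCC2, chr7:152676112-152676211, minus strand: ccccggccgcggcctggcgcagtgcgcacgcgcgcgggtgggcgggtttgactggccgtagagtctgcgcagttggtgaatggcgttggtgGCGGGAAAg
TOPBP1, chr3:133661912-133662011, minus strand: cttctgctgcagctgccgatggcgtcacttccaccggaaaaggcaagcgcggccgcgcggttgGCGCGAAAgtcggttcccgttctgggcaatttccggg
FANCC, chr9:95317680-95317779, minus strand: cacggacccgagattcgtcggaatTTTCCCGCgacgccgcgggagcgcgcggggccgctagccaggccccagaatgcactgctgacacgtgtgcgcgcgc
MSH6, chr2:47783075-47783174, plus strand: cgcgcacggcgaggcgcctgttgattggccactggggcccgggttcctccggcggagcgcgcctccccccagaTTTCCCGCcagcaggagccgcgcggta

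The first 3 of these genes had log2 fold changes of -3.09, -3.48, and -3.12. TOPBP1 had -1.13, FANCC had -0.54, and MSH6, with the word 3 bases after 1 of its starts, had 0.30. MSH6 had 4 promoter entries, and EXO1 and FANCC had 2 each. In each of these 3 genes E2F words lay in 1 entry only. The word in FANCD2 and in XRCC2 is the same one, TTTCCCGC read on the opposite strand, and MSH6 carries it on its own strand. FANCA holds the seventh, 172 bases before its start. The words TTTGAA and TTCGAA, which form the core of the CHR element of late cell cycle promoters, were found for 4 members (11.8%) against 15.5% of the matched genes tested and 23.4% of those called lower. They were found for 3 of the 24 members called lower and 1 of the 10 others. CCAAT, the site of the factor NF-Y, was found for 18 (52.9%) against 43.5% and 51.8%. It was found for 12 of the 24 members called lower and 6 of the 10 others, so the share was not higher in the members called lower. A match here is a description of the letters, and RAD51AP1 and EME1, which had the largest falls, held no E2F word in this window.

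Members of the Fanconi core complex differed in direction. The list held the core subunits FANCA, FANCB, FANCC, FANCE, FANCF, FANCG, and FANCL, the translocase FANCM, and UBE2T. UBE2T is the ubiquitin-conjugating enzyme that works with FANCL. Of the 9 genes, 7 were called lower and 1 higher, against 17.7% and 17.4% of all genes tested. UBE2T had normalized counts of 2179.5 and 2356 at 6 h and 294 and 309 at 24 h. No library of one time point approached the other, and the log2 fold change was -2.91 ± 0.0841 (SE, adjusted P = 5.71e-21). FANCB, an X-linked subunit, was the least abundant member per length at both times, with normalized counts of 75.6 and 94.0 at 6 h and 13.9 and 6.81 at 24 h. Both 24 h values were low but differed between the libraries, with only 14 and 7 raw counts, and the log2 fold change was -3.03 ± 0.302 (SE), and it was -3.61 without the first 24 h library and -2.59 without the second. The other lower subunits fell less.

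FANCG, a scaffold subunit, had normalized counts of 648 and 752 at 6 h and 202 and 219 at 24 h, and a log2 fold change of -1.73 ± 0.106 (SE). FANCA, which forms a subcomplex with FANCG, had 225 and 253 at 6 h and 60.8 and 71.0 at 24 h, and a log2 fold change of -1.86 ± 0.154 (SE). The pair thus changed by a similar amount, and the RPKM ratio of FANCA to FANCG was 0.162 and 0.158 at 6 h and 0.141 and 0.152 at 24 h. FANCM had normalized counts of 407 and 319 at 6 h and 144 and 113 at 24 h (log2 fold change -1.49 ± 0.140, SE). It recruits the core complex to chromatin, and its 6 h libraries differed more from each other than those of the other genes of this group.

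FANCL, the catalytic ubiquitin ligase subunit, had normalized counts of 322 and 293 at 6 h and 222 and 182 at 24 h, and a log2 fold change of -0.60 ± 0.122 (SE, adjusted P = 0.000111). FANCC, which sits with FANCE and FANCF in one subcomplex, had 624 and 585 at 6 h and 436 and 394 at 24 h, and a log2 fold change of -0.54 ± 0.0937 (SE, adjusted P = 1.48e-05). Both changes are close to the cutoff. Without the second 24 h library they were -0.46 and -0.46, and without the first 6 h library that of FANCC was -0.50, which ended those calls. FANCF had normalized counts of 166 and 174 at 6 h and 267 and 286 at 24 h and was called higher (log2 fold change 0.70 ± 0.122, SE, adjusted P = 1.54e-05). FANCE had 83.1 and 92.1 at 6 h and 85.7 and 76.9 at 24 h, the one member whose groups overlapped, and its 95% interval ran from -0.48 to 0.26. The subunits of this one subcomplex therefore had a lower, an uncalled, and a higher value.

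FANCD2 and FANCI, the ID complex that the core complex ubiquitinates, were both called lower and changed almost equally. FANCD2 (chromosome 3, 10068098 to 10143614 in hg19) had normalized counts of 711 and 696 at 6 h and 84.7 and 80.8 at 24 h, and a log2 fold change of -3.09 ± 0.117 (SE, adjusted P = 2.62e-18). FANCI (chromosome 15, 89787180 to 89860492) had 1820.1 and 1738 at 6 h and 226 and 215 at 24 h, and a log2 fold change of -3.01 ± 0.0894 (SE, adjusted P = 1.06e-20). At 24 h, 11.8% and 12.4% of the mean 6 h count was left. The RPKM ratio of FANCI to FANCD2 was 2.79 and 2.73 at 6 h and 2.91 and 2.90 at 24 h. The levels of both genes thus moved while their ratio stayed within 2.73 to 2.91 across the 4 libraries.

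**Figure D2:**
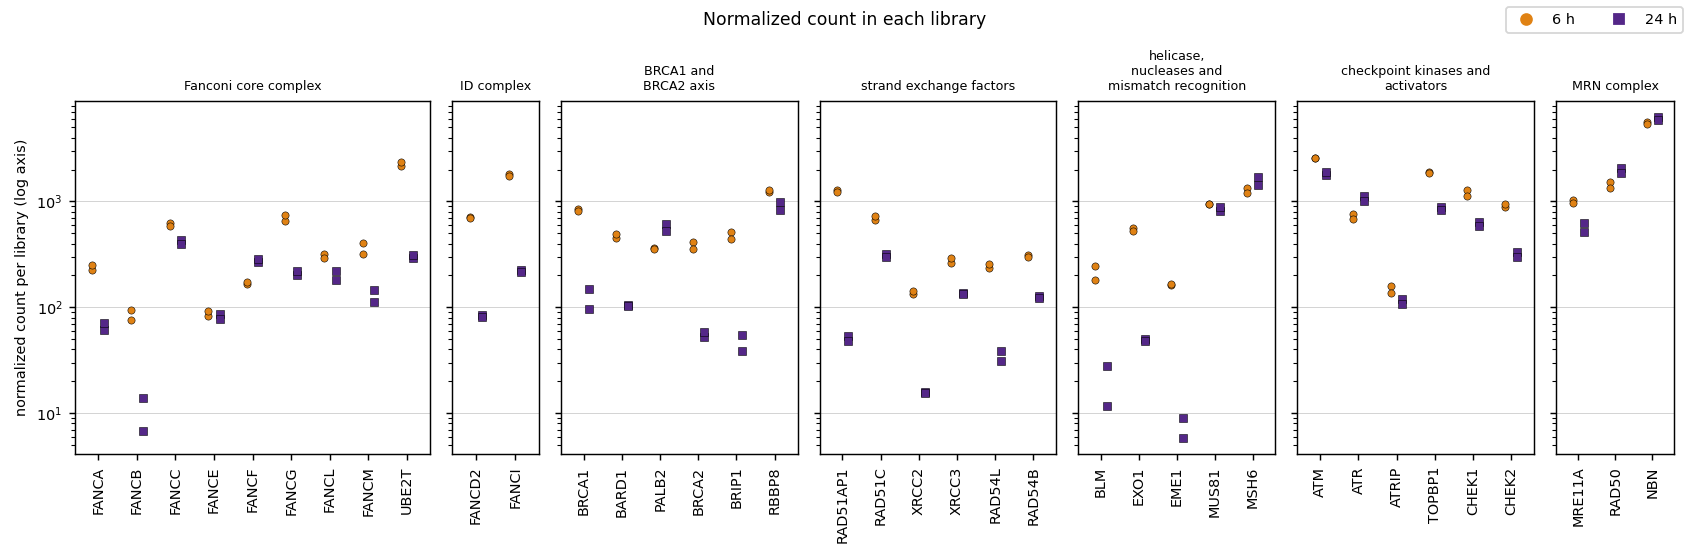
Normalized count of each member in each library on a log axis, with the 2 libraries at 6 h as circles and the 2 at 24 h as squares, in panels by role. The squares of RAD51AP1, EME1, EXO1, and BLM lie farthest below their circles, those of FANCE overlap its circles, and those of FANCF, PALB2, ATR, MSH6, RAD50, and NBN lie above.

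Along the BRCA1-PALB2-BRCA2 axis of recombination, the bridging factor went the opposite way from both ends. BRCA1, a ubiquitin ligase that promotes end resection, had normalized counts of 852 and 820.3 at 6 h and 148 and 95.4 at 24 h, and a log2 fold change of -2.78 ± 0.126 (SE, adjusted P = 1.38e-16). BRCA2 (chromosome 13, 32889611 to 32973805 in hg19), a mediator of strand exchange, had 415 and 359 at 6 h and 52.8 and 58.4 at 24 h, and a log2 fold change of -2.79 ± 0.147 (SE, adjusted P = 3.49e-15). PALB2 (chromosome 16, 23614488 to 23652631), which binds both, had 365 and 352 at 6 h and 609.7 and 523 at 24 h and was called higher, with a log2 fold change of 0.66 ± 0.0994 (SE, adjusted P = 1.98e-06). The 95% interval of PALB2, 0.46 to 0.86, lay wholly above 0 and that of BRCA2, -3.09 to -2.49, wholly below. The RPKM ratio of BRCA2 to PALB2 was 0.459 and 0.411 at 6 h and 0.0350 and 0.0451 at 24 h. It was 10.9-fold higher at 6 h, from the means of the 2 libraries.

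BARD1, the obligate partner of BRCA1, had normalized counts of 448 and 489 at 6 h and 106 and 102 at 24 h, and a log2 fold change of -2.17 ± 0.122 (SE). Its RPKM ratio to BRCA1 was 0.731 and 0.829 at 6 h and 0.989 and 1.49 at 24 h, and the 24 h values of BRCA1 differed more between libraries than those of BARD1. BRIP1, a helicase that binds the BRCT domains of BRCA1, had normalized counts of 511 and 440.4 at 6 h and 54.8 and 38.9 at 24 h, and a log2 fold change of -3.34 ± 0.154 (SE). Of the 6 genes of this axis BRIP1 had the largest fall. RBBP8 encodes CtIP, which starts resection with the MRN complex, and had 1219 and 1291 at 6 h and 994 and 825 at 24 h, and a log2 fold change of -0.47 ± 0.0843 (SE, adjusted P = 2.71e-05). Its 24 h libraries lay below its 6 h libraries, but it was not called, and it passed the cutoff only without the first 6 h library (-0.51), without the first 24 h library (-0.60), and with scaling by library size alone (-0.51).

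The strand exchange factors were all called lower, 6 of 6, against 17.7% of all genes tested. RAD51AP1 (chromosome 12, 4647950 to 4669214 in hg19), an accessory protein that stimulates strand invasion, had normalized counts of 1280.3 and 1233 at 6 h and 53.8 and 47.7 at 24 h. The resulting log2 fold change, -4.63 ± 0.120 (SE, adjusted P = 5.14e-22), was the most negative of the members and ranked 45 of the 12876 genes tested, and 4.04% of the mean 6 h count was left. Per length it went from rank 3 among the members to rank 24. XRCC2, a subunit of a paralog complex of recombination, had normalized counts of 134 and 141 at 6 h and 15.9 and 15.6 at 24 h, and a log2 fold change of -3.12 ± 0.229 (SE). RAD54L, a translocase that acts on paired DNA, had 235 and 256 at 6 h and 38.9 and 31.1 at 24 h, and a log2 fold change of -2.81 ± 0.174 (SE). These 3 genes each kept less than 15% of their 6 h count.

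The other 3 fell by smaller amounts. RAD51C had normalized counts of 674 and 724 at 6 h and 321 and 299 at 24 h (log2 fold change -1.18 ± 0.0951, SE). XRCC3, with which RAD51C forms a heterodimer, had 263 and 295 at 6 h and 136 and 134 at 24 h (log2 fold change -1.04 ± 0.128, SE), and the RPKM ratio of XRCC3 to RAD51C stayed between 0.358 and 0.411 in the 4 libraries. XRCC2, which belongs to the other paralog complex, changed more, and its RPKM ratio to XRCC3 was 0.321 and 0.303 at 6 h and 0.0739 and 0.0733 at 24 h. RAD54B, a relative of RAD54L, had normalized counts of 314 and 300.3 at 6 h and 128 and 122 at 24 h (log2 fold change -1.30 ± 0.126, SE). RAD54B shares 58576 bases of its span on the same strand with FSBP, which was also called lower (log2 fold change -1.17), and reads of the 2 genes may have been split between them.

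Among the helicase, nuclease, and mismatch recognition genes, 3 of 5 were called lower and none was called higher. The shares among all genes tested were 17.7% and 17.4%. EXO1, the exonuclease of long-range resection, had normalized counts of 564 and 525 at 6 h and 49.8 and 47.7 at 24 h, and a log2 fold change of -3.48 ± 0.137 (SE, adjusted P = 6.40e-18). BLM, the helicase that dissolves double Holliday junctions, had 244 and 182 at 6 h and 27.9 and 11.7 at 24 h, and a log2 fold change of -3.42 ± 0.241 (SE, adjusted P = 1.62e-12). The first 24 h library of BLM was over the second by more than the spread in most members, yet both were far under the 6 h values. Its log2 fold change was -4.16 without the first and -2.91 without the second. EME1 (chromosome 17, 48450581 to 48458844 in hg19) had 161 and 165 at 6 h and 8.97 and 5.84 at 24 h, from 9 and 6 raw counts at 24 h, and a log2 fold change of -4.44 ± 0.262 (SE, adjusted P = 3.80e-14). It encodes the partner that MUS81 needs to cut recombination intermediates.

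MUS81 itself, the catalytic subunit, had normalized counts of 947 and 943 at 6 h and 810.0 and 884 at 24 h, and a log2 fold change of -0.16 with a 95% interval from -0.32 to 0.01 (adjusted P = 0.0864), and was not called. The RPKM ratio of EME1 to MUS81 was 0.171 and 0.176 at 6 h and 0.0111 and 0.00664 at 24 h, 19.5-fold higher at 6 h by the means. MUS81 overlaps CFL1 on the opposite strand, which had between 17435 and 21025 raw counts, and also EFEMP2 on that strand, with 1669 and 1718 at 6 h and 3676 and 3745 at 24 h. EFEMP2 was called higher (log2 fold change 1.08), and its part in the MUS81 counts and in this ratio was not tested. EME1 overlaps LRRC59 over 6425 bases. LRRC59 had 2613 and 2861 raw counts at 6 h and 3018 and 2864 at 24 h, when EME1 had 9 and 6. The strand setting of the counting is not given in the sources used here, so reads of such pairs cannot be told apart. MSH6, a mismatch recognition protein, had normalized counts of 1327 and 1208 at 6 h and 1685 and 1441 at 24 h, and a log2 fold change of 0.30 ± 0.0795 (SE, adjusted P = 0.00162). Its 24 h libraries lay above its 6 h libraries by less than the cutoff.

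**Figure D3:**
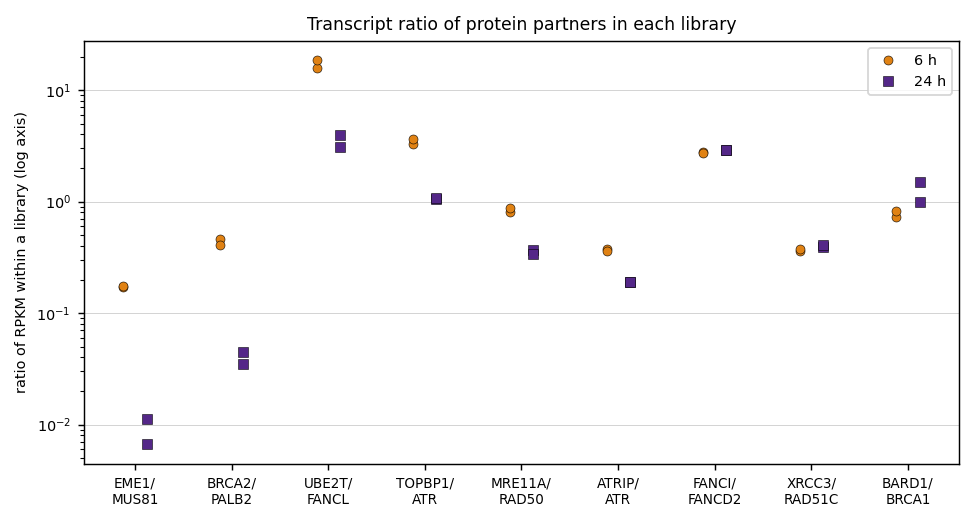
Ratio of the RPKM of 2 genes whose proteins act together, computed within each library and drawn on a log axis, with circles for 6 h and squares for 24 h. EME1/MUS81, BRCA2/PALB2, and UBE2T/FANCL had lower ratios in both 24 h libraries, whereas FANCI/FANCD2 and XRCC3/RAD51C stayed close to their 6 h ratios and BARD1/BRCA1 was higher at 24 h.

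Of the 6 checkpoint genes, both effector kinases and the ATR activator were called lower and ATR was called higher. Among all genes tested, 17.7% were called lower and 17.4% higher. CHEK1, the effector of ATR, had normalized counts of 1278 and 1130.2 at 6 h and 636 and 588 at 24 h, and a log2 fold change of -0.98 ± 0.0849 (SE, adjusted P = 1.16e-10). CHEK2, the effector of ATM, had 883 and 935 at 6 h and 329.8 and 296 at 24 h, and a log2 fold change of -1.54 ± 0.0930 (SE, adjusted P = 6.20e-14). TOPBP1, which activates ATR, had 1908 and 1860.2 at 6 h and 894 and 822 at 24 h, and a log2 fold change of -1.13 ± 0.0739 (SE, adjusted P = 3.14e-13). All 3 were called lower, and none of the 6 checkpoint genes fell below -2.

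ATR, the sensor of single-stranded DNA at stalled forks, had normalized counts of 763 and 683 at 6 h and 1118 and 1016 at 24 h and was called higher, with a log2 fold change of 0.56 ± 0.0841 (SE, adjusted P = 1.76e-06). The call is near its cutoff, since the log2 fold change was 0.48 without the second 6 h library and 0.50 without the first 24 h library, each of which ended the call. ATRIP, which brings ATR to the coated DNA, had 159.8 and 137 at 6 h and 119.6 and 108 at 24 h, and a log2 fold change of -0.38 ± 0.152 (SE, adjusted P = 0.0306). The RPKM ratio of ATRIP to ATR was 0.373 and 0.358 at 6 h and 0.191 and 0.190 at 24 h, and that of TOPBP1 to ATR was 3.31 and 3.61 at 6 h and 1.06 and 1.07 at 24 h. ATM, the kinase of double-strand breaks, had normalized counts of 2569 and 2587 at 6 h and 1791 and 1894 at 24 h, and a log2 fold change of -0.48 ± 0.0701 (SE, adjusted P = 1.06e-06). Its 24 h libraries lay below its 6 h libraries by slightly less than the cutoff, which it passed without the second 24 h library (-0.52) and with scaling by library size alone (-0.53).

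The MRN complex, which tethers broken ends and activates ATM, had the smallest changes of the roles. Of its 3 genes 1 was called lower, against 17.7% of all genes tested. MRE11A, the nuclease, had normalized counts of 1028 and 973 at 6 h and 619 and 515 at 24 h, and a log2 fold change of -0.82 ± 0.0900 (SE, adjusted P = 9.68e-09). RAD50, the ATPase that holds the ends, had 1525 and 1342 at 6 h and 2048 and 1852 at 24 h, and a log2 fold change of 0.44 ± 0.0769 (SE, adjusted P = 1.46e-05), which passed the adjusted P but not the fold cutoff. Without the first 6 h or the second 24 h library its change was 0.54 and 0.52, past that cutoff. NBN, the subunit that binds ATM, had 5659.9 and 5349 at 6 h and 6296 and 5895 at 24 h, and a log2 fold change of 0.15 with a 95% interval from -0.002 to 0.30 (adjusted P = 0.077). The RPKM ratio of MRE11A to RAD50 was 0.815 and 0.876 at 6 h and 0.365 and 0.336 at 24 h, and that of NBN to RAD50 was 4.27 and 4.59 at 6 h and 3.54 and 3.66 at 24 h. The subunits of this complex thus spanned a called fall and a difference in the opposite direction.

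The order of the levels per length was different at the 2 times. At 6 h, UBE2T was the highest member with a mean of 80.4 RPKM, followed by NBN with 29.3, RAD51AP1 with 22.2, CHEK2 with 17.6, and MUS81 with 15.3. At 24 h the order began with NBN at 32.4, MUS81 at 13.7, UBE2T at 10.7, RBBP8 at 10.6, and RAD50 at 9.01. UBE2T and RBBP8 lay within the spread of each other at 24 h, at 10.4 and 11.0 RPKM for UBE2T and 11.5 and 9.58 for RBBP8 in the 2 libraries. The median over the members was 4.70 RPKM at 6 h and 1.76 at 24 h. The signed log2 fold change showed little relation to transcript length, GC content, or the 6 h RPKM across the 37 genes. The Spearman correlations were 0.16, 0.12, and 0.12, against 0.061, 0.23, and -0.15 across the 12566 genes tested with a transcript length. The 6 h level is itself part of the fold change, and all values come from the same 4 libraries.

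The 2 libraries of a time point were close in most members. The standard deviation of the 2 libraries exceeded 20% of their mean in 1 member at 6 h and in 5 at 24 h, which were FANCB, BRCA1, BRIP1, BLM, and EME1. The second 24 h library was below the first in 30 of 37 members and in 6448 of the 12876 genes tested. The median log2 difference was -0.14 for the members and -0.00024 for all genes tested. All 5 members with the wider 24 h spread were called lower, as were 26 of all 37 members. The standard errors above come from a fit that shares its estimate of spread across genes, so they hold a gene's own spread only in part. Without the first or the second 24 h library, BRCA1 had -3.12 and -2.48, outside its 95% interval of -3.04 to -2.52. The values of BLM, -4.16 and -2.91, also lay outside its interval, -3.92 to -2.92. Those of FANCB, BRIP1, and EME1 lay inside theirs. EME1 and FANCB had a 24 h library under 10 counts and passed the filter on low counts through their 6 h libraries, so that passing it favored a difference in these 2 genes.

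Other genes of the same pathways were read from lists that leave out the 37 members. Of 55 tested genes of Fanconi repair, recombination, and checkpoint control, 28 (50.9%) were called lower and 4 (7.27%) higher. The shares among all genes tested were 17.7% and 17.4%. The median log2 fold change of this list was -0.52. The largest falls were CDC25C (-5.79), the mitotic phosphatase, POLQ (-3.53), the polymerase of end joining by microhomology, and CLSPN (-3.51), the adaptor that lets ATR activate CHEK1. C17orf70, also known as FAAP100, BRE, and TOP3A had the largest rises, with 0.63, 0.58, and 0.56. C17orf70 is a further subunit of the Fanconi core complex, BRE belongs to the BRCA1-A complex, and TOP3A dissolves junctions with BLM.

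The lists of non-homologous end joining and base excision repair had medians nearer to 0 than the -0.52 of that list. Of 10 non-homologous end joining genes tested, 2 were called lower, XRCC4 (-1.61) and DCLRE1C (-0.57), and 0 higher, with a median of -0.14. For both lists, the shares to compare with are those among all genes tested, 17.7% lower and 17.4% higher. Base excision repair had 8 of 21 called lower (38.1%), led by NEIL3 (-3.87), FEN1 (-1.53), and PARP2 (-1.41). Another 3 (14.3%) were called higher, NEIL1 (0.78), APEX1 (0.66), and UNG (0.65), and the median was -0.35. FEN1 also processes Okazaki fragments in replication. No test compared the lists with each other, and these medians are descriptions.

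**Figure D4:**
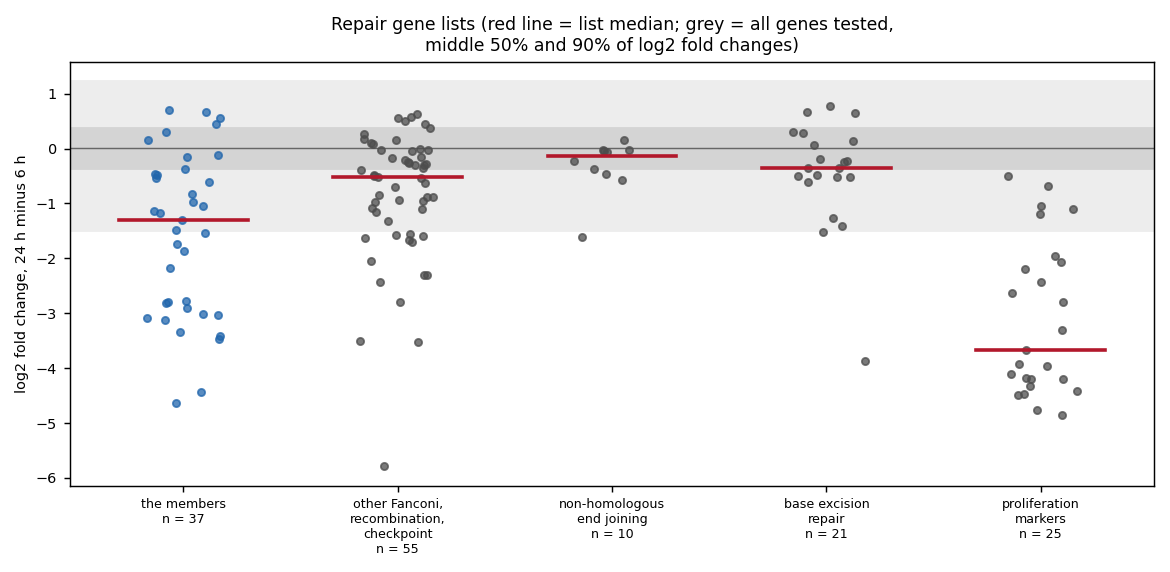
Log2 fold change (24 h minus 6 h, vertical axis) of each gene tested in the 37 members and in 4 other lists, with the list median as a red line and the middle 50% and 90% of all genes tested as grey bands. The members spread from -4.63 to 0.70 around a median of -1.30, between the proliferation markers and the other repair lists.

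Positions in the deposited table overlap another gene for 18 of the members, and for 15 of these the other gene had more than 10 counts in a library. Beside those already named, the overlaps with such a gene were FANCA with ZNF276, FANCL with VRK2, FANCI with POLG, XRCC3 with KLC1, RAD54L with LRRC41, MSH6 with FBXO11, ATM with NPAT and C11orf65, ATRIP with TREX1, CHEK1 with STT3A, CHEK2 with HSCB, MRE11A with ANKRD49, and NBN with DECR1. ATRIP and TREX1, and CHEK1 and STT3A, lie on the same strand. Counts of these members are uncertain by the reads that fall in the shared bases.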

How the data were processed

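The authors aligned reads with STAR, version 2.3 in the submitters' processing notes and a later version in the study's text, and tested the counts with DESeq2. The counting tool and its strand setting are not given in the sources used here. The labels describe single-end reads of 50 bases, whereas the study's text describes paired-end reads from a stranded kit. The deposited table holds raw counts per gene for the 4 libraries, deposited size-factor normalized values (signal), and columns of the authors' comparison (mean, fold change, standard error, statistic, and P values), which were not used. Positions in it are hg19.

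Raw counts were analysed in R 4.3.3 with edgeR 4.0.16 (TMM scaling, filterByExpr with a minimum of 10 counts, and the quasi-likelihood test of 24 h against 6 h over all genes), after a check on simulated data. The genes tested held 99.97% of counts. RPKM took each gene's longest coding transcript as its length. Genes were called by an absolute log2 fold change over 0.5 with P under 0.01, and adjusted P is Benjamini-Hochberg. All 37 members were named, with the 3 largest called rises and falls of each other list shown. Some genes and lists are not reported here. The members and lists were chosen with earlier results of these data known. Same-numbered libraries of the 2 times deviated with a correlation of 0.0844. No pair of libraries at 1 time was alike within sampling noise. DESeq2 1.42.0, other scalings and filters, a replicate block, and leaving out each library were tried as alternatives.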

Additional observations from a re-analysis of the deposited data

How the results depend on the processing

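The count of members called lower was 26 with DESeq2, without a filter on low counts, with upper-quartile scaling, and with a replicate block, 28 with library size alone, 24 of 35 tested when every library had to hold 10 counts, and 25 to 27 with 1 library left out. The count called higher was 2 to 4 with 1 library left out, and 5 with an adjusted P under 0.05 or under 0.01 in place of the cutoffs. The median log2 fold change was -1.17 with 10 counts required in every library, which dropped EME1 and FANCB, and -1.34 to -1.26 with 1 library left out. With the replicate block the counts were 26 lower and 3 higher and the median was -1.30, and the labels give no pairing beyond the numbers. No member changed direction under these alternatives. With 2 libraries a time point, changes near the 0.5 cutoff are not settled, as for FANCC, FANCL, ATR, RBBP8, ATM, and RAD50.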
